A study of Mus musculus with 8 samples.

Results

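The expression of 10 genes of the transforming growth factor β (TGF-β) pathway was measured in whole fetal mouse lung with and without tracheal occlusion (TO). They were chosen by name, and each symbol matched 1 of the 55385 genes counted: the ligands Tgfb1, Tgfb2 and Tgfb3, the receptors Tgfbr1, Tgfbr2 and Tgfbr3, the latent TGF-β binding proteins Ltbp1, Ltbp2 and Ltbp3, and the inhibitor Smad7. All fetuses were C57BL/6 and were collected at E18.5. In the 4 TO fetuses the trachea was ligated at E16.5 together with one carotid artery and jugular vein, so the vessel ligation and the occlusion cannot be told apart. The other 4 fetuses are labelled control, with no procedure named in the labels. Dams of TO fetuses had a laparotomy under anesthesia and later received progesterone. Whether the control fetuses came from such dams is not stated, so a part of this treatment cannot be told apart either. Bulk RNA of the lung was sequenced, so fewer cells of a type and less RNA per cell cannot be told apart.

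TGF-β ligands are secreted in a latent form, in which the cleaved propeptide still encloses the ligand. Latent TGF-β binding proteins anchor this complex to fibrillin and other matrix fibers, and integrins or proteases release the ligand, including under mechanical pull. Free ligand binds the type II receptor, which activates the type I receptor, and Smad2 and Smad3 then carry the signal to the nucleus. In the developing lung the pathway is known for restraining airway branching and for driving myofibroblast and elastic fiber genes.

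The promoters of Tgfb2 and Ltbp2 are shown because these were the members whose control and TO lungs did not overlap over all 8 libraries. Each sequence is the RefSeq reference of build GRCm38.p6 from 250 bases before to 50 after the annotated start, written 5′ to 3′ on the strand of the gene. Capitals mark a TATA box, TATAAA, and an E-box, CACGTG.
Tgfb2, chr1:186705940-186706239, minus strand: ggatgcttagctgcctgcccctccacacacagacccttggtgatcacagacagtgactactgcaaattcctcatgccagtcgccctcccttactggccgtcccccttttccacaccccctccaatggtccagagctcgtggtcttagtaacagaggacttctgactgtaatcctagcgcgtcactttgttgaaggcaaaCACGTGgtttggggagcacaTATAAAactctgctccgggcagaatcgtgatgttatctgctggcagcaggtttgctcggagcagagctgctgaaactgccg
Ltbp2, chr12:84876442-84876741, minus strand: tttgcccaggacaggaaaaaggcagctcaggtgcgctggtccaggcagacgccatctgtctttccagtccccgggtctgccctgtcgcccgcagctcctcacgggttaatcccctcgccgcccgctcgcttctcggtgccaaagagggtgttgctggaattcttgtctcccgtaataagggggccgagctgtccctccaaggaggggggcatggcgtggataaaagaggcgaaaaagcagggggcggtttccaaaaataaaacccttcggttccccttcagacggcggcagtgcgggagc
In the Tgfb2 promoter the TATA box began at position -31 and the E-box at position -51, with the start site counted as 0. Of 32851 promoters of this length, 13.6% held TATAAA and 7.15% held CACGTG on either strand. GGAATG, the core letters of sites bound by TEAD factors, stood in 14.7% of promoters and TGACGT, part of a cyclic AMP response element, in 7.51%. Neither occurred in the Tgfb2 window, and none of these 4 motifs occurred in that of Ltbp2. The G and C bases made up 54.3% of the Tgfb2 window and 61.0% of the Ltbp2 window, against a median of 52.7% over all promoters. The RefSeq start of Ltbp2 lay 41 bases from that of its GENCODE M21 gene model. A match is a description of these letters only, and binding was not measured here.

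The libraries differed in depth and make-up. TO 1 held 270078 read pairs on genes and the other 7 libraries 22822261 to 35002061, so that 11 to 92 read pairs stood behind each member in TO 1 and at least 892 in any other library. The study's clustering shows 6 specimens, controls 1, 2 and 4 and TO 2, 3 and 4. Fold changes are given first for these 6 libraries and then for all 8. Lung epithelial markers were present in every library, with a summed level of 8854 to 15225 CPM (read pairs scaled to library size) in control and 6201 to 17464 CPM in TO lungs. Control 3 and TO 3 stood apart from the rest, with summed cell cycle markers of 397 and 380.1 CPM against 792 to 1502 CPM elsewhere. Their summed interferon-stimulated genes were at 180 and 321 CPM against 24.0 to 84.0 CPM elsewhere. Muscle and liver markers varied widely, and TO 1 held 2548 CPM of skeletal muscle genes and 224 CPM of thymus genes. The part of these differences in the results that follow was not tested.

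None of the 10 members passed an adjusted p of 0.1 by the quasi-likelihood test of edgeR with Benjamini-Hochberg adjustment, in 6 libraries or in 8. The same test called 0 of 21859 genes (0%) in the 6 libraries and 0 of 22545 (0%) in all 8. By DESeq2, 44 genes (0.201% of those tested) were called in the 6 libraries and 7 (0.0310%) in all 8, and none of them was a member. DESeq2 gave no adjusted p to 3438 of the genes tested in the 6 libraries and to 59 in all 8. Such genes could not be called. At an unadjusted p of 0.05, edgeR passed 3 members in the 6 libraries, against 1123 genes (5.14%), and 1 in all 8, against 530 genes (2.35%). Groups that did not overlap were found for 4 members in the 6 libraries, against 2384 genes (10.9%), and for 2 in all 8 libraries. Both of these were lower in TO. Over all genes, 292 (1.30%) lay lower in every TO lung and 160 (0.710%) higher. The values of every library are drawn in the plot of members by library.

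**Figure D1:**
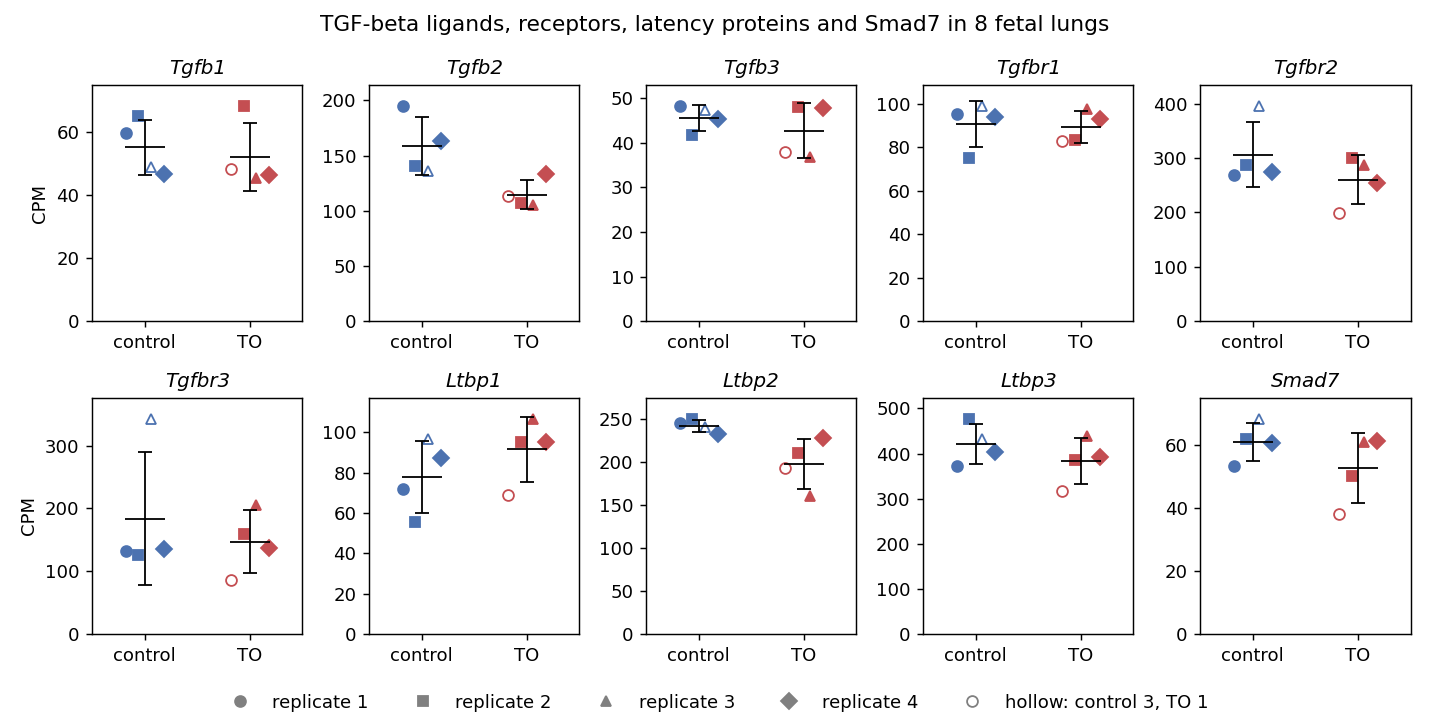
Normalised read count (CPM, vertical axis from 0) of each of the 10 members in the 4 control and 4 TO lungs, with marker shapes for the replicate numbers, hollow markers for control 3 and TO 1, and bars for the mean and SD over the 4 libraries of a group. Tgfb2 and Ltbp2 are separated in all 8 libraries, and control 3 stands above the other controls for Tgfbr2 and Tgfbr3.

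Among the ligands, Tgfb2 was lower in every TO lung than in every control lung. Tgfb2 (ENSMUSG00000039239.14, chromosome 1 from 186622792 to 186705989, minus strand, GRCm38) encodes a ligand that binds the type II receptor poorly unless a coreceptor presents it. Its level was 195, 141, 136 and 163 CPM in controls 1 to 4. In TO 1 to 4 it was 114, 107, 105 and 133 CPM. The groups came closest at control 3 and TO 4, where 136 and 133 CPM nearly met. The mean of the 6 libraries was 166 ± 27.0 CPM in control and 115 ± 15.6 CPM in TO (SD, n = 3 each), 30.8% lower by the fit. The log2 fold change was -0.53 (SE 0.15, 95% interval -0.87 to -0.19), with an unadjusted p of 0.00673 in edgeR and an adjusted p of 0.907. By p it stood at rank 91 of 21859 genes. Without TO 3 the log2 fold change was -0.46 (edgeR unadjusted p = 0.0244), and without control 1, its highest library, it was -0.40 (edgeR unadjusted p = 0.0312).

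With all 8 libraries the mean of Tgfb2 was 159 ± 26.7 CPM in control and 115 ± 12.8 CPM in TO lungs (SD, n = 4 each). The log2 fold change was -0.47 (SE 0.15, 95% interval -0.80 to -0.14, edgeR unadjusted p = 0.00968, adjusted p = 0.99999). DESeq2 gave an adjusted p of 0.271 in the 6 libraries and of 0.99998 in all 8. The direction was the same in 20 of 20 alternative settings, between -0.65 and -0.34. The unadjusted p stayed under 0.05 in each, while the adjusted p ran from 0.149 to 0.99999. These settings reuse the same lungs, so they are not independent checks. The value of TO 1 rests on 33 read pairs, which gives an exact 95% binomial interval of 78.2 to 160 CPM that reaches into the control range. Such an interval covers counting error only. The predicted antisense gene Gm29491 shares 2.14% of the exon length of Tgfb2. Read pairs that overlap exons of both are counted for neither.

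Several marker lists differed between the groups as well. The 6 leukocyte markers summed to 64.0 to 87.5 CPM in control and 86.5 to 193 CPM in TO lungs, so that only control 3 and TO 2 overlapped. All 6 were higher in TO at an unadjusted p under 0.05 in the 6 libraries, and 0 passed the adjusted threshold. The 4 megakaryocyte and platelet markers summed to 13.6 to 20.5 CPM in control and 24.1 to 27.7 CPM in TO lungs. Only 1 of these 4 passed an unadjusted p of 0.05, and the sum of TO 1 rests on 7 read pairs, too few to place it apart from the controls. In the 6 libraries, 6 of 6 interferon-stimulated genes were higher in TO by the fit, 5 of them at an unadjusted p under 0.05. Their sums were 26.8, 39.2 and 39.2 CPM in controls 1, 2 and 4 and 24.0, 321 and 84.0 CPM in TO 2, 3 and 4. TO 2 was thus the lowest library and TO 3 the highest, and control 3, outside these 6, stood at 180 CPM. All 6 cardiac and all 5 skeletal muscle markers were higher in TO and 0 of 6 cell cycle markers, none at an unadjusted p under 0.05. The part of these differences in the lower Tgfb2 and Ltbp2 was not tested.

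The other two ligands showed no separation. Tgfb1 (ENSMUSG00000002603.15, chromosome 7 from 25687002 to 25705077, plus strand) encodes the ligand most studied in fibrosis. It was at 59.5, 65.0, 48.8 and 46.6 CPM in control and 48.2, 68.0, 45.3 and 46.2 CPM in TO lungs. TO 2 had the highest value of all and TO 3 the lowest. The log2 fold change was -0.10 (SE 0.19, 95% interval -0.53 to 0.32). Tgfb3 (ENSMUSG00000021253.7, chromosome 12 from 86056745 to 86079041, minus strand), the ligand known for its part in palate fusion and fetal lung maturation, was at 48.2, 41.7, 47.4 and 45.3 CPM in control and 37.9, 48.1, 36.8 and 47.9 CPM in TO lungs. TO 1 and TO 3 lay below every control, while TO 2 and TO 4 lay among them. The value of TO 1 rests on 11 read pairs, an exact 95% binomial interval of 18.9 to 67.8 CPM that covers every control. Its log2 fold change was -0.025 in the 6 libraries (95% interval -0.35 to 0.30) and -0.069 in all 8. Other gene models, Gm37804 and Gm48008, share 4.82% and 7.60% of its exon length.

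**Figure D2:**
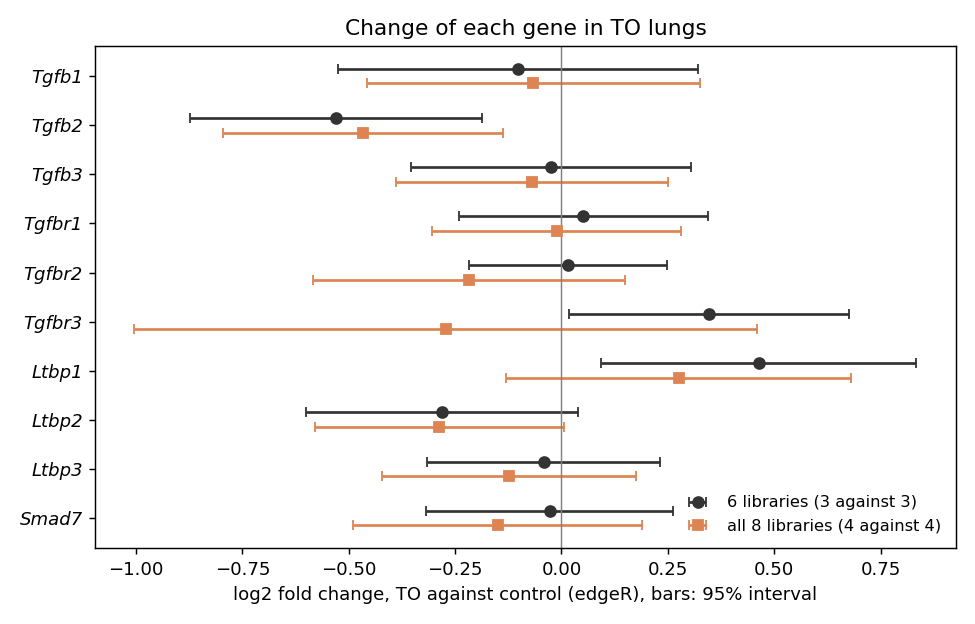
Log2 fold change of TO against control for the 10 members, with 95% intervals from the edgeR fit, in the 6 libraries and in all 8 (horizontal axis, log2 scale, 0 is no difference). The interval of Tgfb2 lies below 0 in both, and those of Tgfbr3 and Ltbp1 lie above 0 in the 6 libraries only.

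Because the 3 ligands act through the same receptors, their levels were also set beside each other per kilobase of exon (RPKM). Tgfb2 was the most abundant ligand transcript, with a mean share of 49.6% of the summed ligand RPKM over the 8 libraries. Tgfb3 held 27.8% and Tgfb1 22.6%. In controls 1 to 4 the share of Tgfb2 was 56.3%, 49.1%, 49.8% and 55.5%, and in TO 1 to 4 it was 48.6%, 40.0%, 47.7% and 49.7%. The groups overlapped narrowly, since TO 4 exceeded control 2. The mean share was 52.7% ± 3.76 in control and 46.5% ± 4.39 in TO lungs (SD, n = 4 each), and this difference was not tested. Tgfb3 took 26.2% ± 2.54 in control and 29.4% ± 1.49 in TO lungs, and Tgfb1 21.1% ± 3.41 and 24.1% ± 3.86. The share of Tgfb1 depends on its length, because its exons together span 5042 bases and its longest transcript 2573. Exon length shared with other genes, 12.4% for Tgfb3 and 2.14% for Tgfb2, adds no counts and lowers their RPKM. By the longest transcript, Tgfb2 held 43.9%, Tgfb1 34.4% and Tgfb3 21.7%, and in TO 2 Tgfb1 (42.9%) exceeded Tgfb2 (34.0%).

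**Figure D3:**
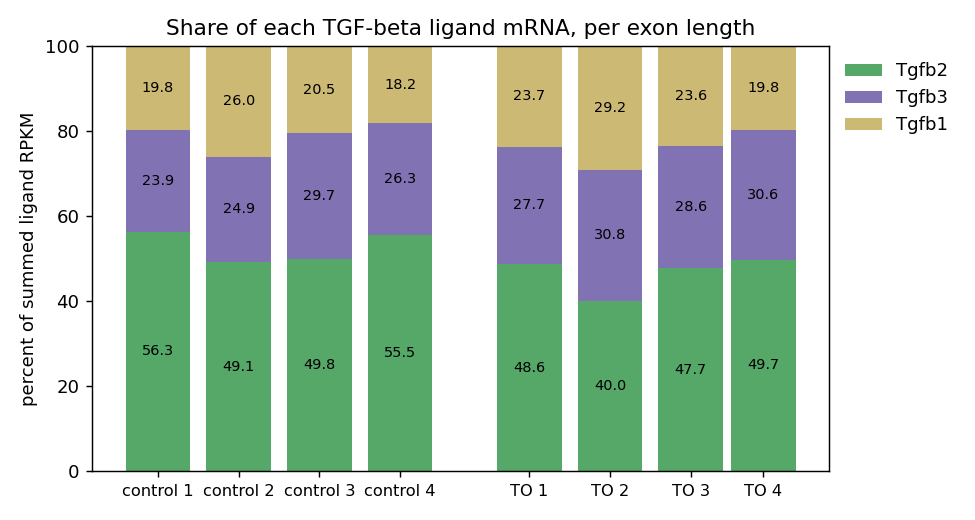
Share of each ligand (percent of the summed RPKM of Tgfb1, Tgfb2 and Tgfb3, vertical axis) in each of the 8 lungs. By exon length, Tgfb2 is the largest share in every library, from 40.0% in TO 2 to 56.3% in control 1, while by the longest transcript Tgfb1 exceeds it in TO 2.

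The levels of the signaling receptors overlapped between the groups. Tgfbr1 (ENSMUSG00000007613.15, chromosome 4 from 47353222 to 47414931, plus strand), the type I receptor kinase, was at 95.2, 74.9, 98.7 and 93.8 CPM in control and 82.6, 83.4, 97.4 and 93.0 CPM in TO lungs. Its log2 fold change was 0.051 in the 6 libraries (95% interval -0.24 to 0.34) and -0.011 in all 8. Tgfbr2 (ENSMUSG00000032440.13, chromosome 9 from 116084293 to 116175360, minus strand), the type II receptor that binds ligand first, was at 269, 288, 395 and 274 CPM in control and 200, 299.7, 288 and 254 CPM in TO lungs. Control 3 was the highest and TO 1 the lowest. The 6 libraries gave a log2 fold change of 0.016 (95% interval -0.22 to 0.25), and all 8 gave -0.22 (95% interval -0.58 to 0.15). Its direction thus turned when control 3 and TO 1 were added.

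Tgfbr3 changed direction with the choice of libraries. Tgfbr3 (ENSMUSG00000029287.14, chromosome 5 from 107106570 to 107289629, minus strand) encodes betaglycan, the coreceptor that presents TGF-β2 to the type II receptor. It was at 132, 126, 342 and 135 CPM in control and 86.1, 159, 206 and 137 CPM in TO lungs. Control 3 exceeded all the others, and TO 1 was the lowest. In the 6 libraries the TO lungs were all higher, TO 4 and control 4 by little, with a log2 fold change of 0.35 (SE 0.15, 95% interval 0.018 to 0.68, edgeR unadjusted p = 0.0408, adjusted p = 0.907). In all 8 it was -0.27 (SE 0.33, 95% interval -1.0 to 0.46, unadjusted p = 0.432), and without TO 1 alone it was -0.14. Among the 6 libraries it was 0.18 without TO 3. Control 3 and TO 3, with the highest Tgfbr3 of their groups, were also the libraries with low cell cycle and high interferon-stimulated transcripts, and the part of that difference was not tested. The gene model Gm43422 shares 4.54% of the exon length of Tgfbr3.

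Of the latent TGF-β binding proteins, Ltbp2 was lower in TO and Ltbp1 higher in the 6 libraries. Ltbp2 (ENSMUSG00000002020.15, chromosome 12 from 84783212 to 84876532, minus strand) differs from its relatives in that its protein does not bind the latent ligand, and it is a matrix protein of elastic fibers. It was at 245, 250.04, 241 and 233 CPM in control and 193, 210.5, 160.4 and 228 CPM in TO lungs. All 4 TO lungs lay below all 4 controls, with control 4 and TO 4 only a few CPM apart. The log2 fold change was -0.28 (SE 0.14, 95% interval -0.60 to 0.040), 17.6% lower, with an unadjusted p of 0.0789 and an adjusted p of 0.907 in edgeR. With all 8 libraries it was -0.29 (95% interval -0.58 to 0.0049, unadjusted p = 0.0534). Without TO 3 the 6 libraries gave -0.13 (unadjusted p = 0.269). TO 1 counts 56 read pairs of Ltbp2, an exact 95% binomial interval of 146 to 250 CPM. The antisense gene D030025P21Rik shares 9.34% of the exon length of Ltbp2.

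Ltbp1 (ENSMUSG00000001870.16, chromosome 17 from 75005568 to 75392512, plus strand), which anchors latent ligand to the matrix, was at 72.04, 55.5, 96.5 and 87.5 CPM in control and 68.9, 95.4, 106 and 95.3 CPM in TO lungs. TO 2, 3 and 4 were above controls 1, 2 and 4, but control 3 and TO 1 overlapped the other group. The log2 fold change was 0.46 (SE 0.16, 95% interval 0.094 to 0.83, edgeR unadjusted p = 0.0195, adjusted p = 0.907) in the 6 libraries. Without TO 3 it was 0.42, and without control 2 it was 0.31 (edgeR unadjusted p = 0.0521). In all 8 it was 0.28, with an unadjusted p of 0.164. Ltbp3 (ENSMUSG00000024940.11, chromosome 19 from 5740904 to 5758532, plus strand), another anchor of the latent complex, was at 373, 476, 432 and 403 CPM in control and 317, 386, 439 and 393 CPM in TO lungs. The groups overlapped, and the log2 fold change was -0.041 in the 6 libraries (95% interval -0.31 to 0.23) and -0.12 in all 8.

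Smad7 (ENSMUSG00000025880.11, chromosome 18 from 75367529 to 75395935, plus strand), the inhibitory Smad that the pathway itself induces, was at 53.2, 61.7, 68.0 and 60.6 CPM in control and 37.9, 50.2, 60.9 and 61.3 CPM in TO lungs. TO 1 and TO 2 lay below every control, and TO 3 and TO 4 lay among them. The value of TO 1 rests on 11 read pairs, an exact 95% binomial interval of 18.9 to 67.8 CPM that reaches into the control range. Its log2 fold change was -0.028 in the 6 libraries (95% interval -0.32 to 0.26) and -0.15 in all 8. Over the 10 members the median log2 fold change was -0.026 in the 6 libraries, with 4 higher and 6 lower, and -0.14 in all 8, with 1 higher and 9 lower. Over all genes tested it was -0.0045 and -0.018.

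Per length, the 10 members spanned a range from Ltbp3, at a mean of 44.4 RPKM over the 8 libraries, to Ltbp1, at 7.92 RPKM. Between them stood Tgfbr2 at 34.6, Ltbp2 at 26.9, Tgfbr3 at 25.3, Tgfb2 at 23.6, Tgfbr1 at 13.8, Tgfb3 at 13.1, Smad7 at 12.5 and Tgfb1 at 10.6 RPKM. The ranges of neighbors in this order overlapped over the 8 libraries, except between Tgfb2 (18.1 to 33.6 RPKM) and Tgfbr1 (11.5 to 15.1 RPKM). By the longest transcript, Tgfb1 stood at 20.8 RPKM, above Tgfbr1. Exon length shared with other genes, such as 12.4% of Tgfb3 and 9.34% of Ltbp2, adds no counts and lowers the RPKM.

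The genes whose profile over the 7 deeper libraries lay nearest to a ligand were ranked by the mean absolute difference of centred log2 CPM. For Tgfb2 they were Fli1 (0.074), Arv1 (0.076) and Aif1l (0.080) among 9300 genes. Its nearest member was Ltbp2, at a difference of 0.18 and rank 348. For Tgfb1 the nearest genes were Lpcat3 (0.051), Grb7 (0.061) and Ramp2 (0.062), and for Tgfb3 Glod4 (0.010), Kdm2b (0.035) and D10Jhu81e (0.039). The nearest member to Tgfb1 was Tgfb3, at rank 2407 of 10762 genes, and the nearest to Tgfb3 was Ltbp2, at rank 1122 of 12225. The ligands' own SD of log2 CPM was 0.25 for Tgfb1, 0.32 for Tgfb2 and 0.15 for Tgfb3 over these libraries.

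Genes that act on the latent complex did not pass the adjusted threshold either. Of 12 latency and activation genes, 4 were higher and 8 lower in TO in the 6 libraries and in all 8, with medians of -0.047 and -0.15 on the log2 scale. Lrrc32, the receptor that holds latent TGF-β on cell surfaces, was higher in the 6 libraries by 0.47 (SE 0.18, edgeR unadjusted p = 0.0311) and by 0.13 in all 8. Furin, the protease that cleaves the propeptide, was higher by 0.24 (SE 0.099, unadjusted p = 0.0368) without overlap in the 6 libraries and by 0.099 in all 8. Ltbp4, an anchor known from lung elastic fibers, differed by 0.088 and -0.12 in the 6 libraries and in all 8, and Fbn1, a fibrillin of the microfibers, by -0.037 and -0.18. Fbn2, the fetal fibrillin, was at 744, 532, 292 and 645 CPM in control and 492, 223, 299 and 666 CPM in TO lungs. The groups overlapped over most of their range, and the log2 fold change was -0.69 (SE 0.35) in the 6 libraries and -0.41 in all 8. Among the 6 it was -1.29 without TO 4 and -0.40 without TO 2. In all 8 libraries 1 gene of the list, Thbs1, an activator of latent TGF-β named after its values were seen, passed an unadjusted p of 0.05. It was at 381, 363, 881 and 360.1 CPM in control and 248, 269.5, 330.4 and 341 CPM in TO lungs, lower in every TO lung, with a log2 fold change of -0.73 (unadjusted p = 0.0235) in all 8 and -0.23 in the 6 libraries. Control 3 stood far above the other controls, and with 7 libraries, TO 1 left out, the value was -0.66 (unadjusted p = 0.0610).

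Of 9 other receptors and accessory proteins, 4 were higher and 5 lower in the 6 libraries, with a median of -0.0049, and 3 were higher and 6 lower in all 8, with a median of -0.096. Acvrl1, an endothelial type I receptor, differed by -0.13 and -0.24, its coreceptor Eng by 0.14 and 0.075, and Bgn, a matrix proteoglycan that binds TGF-β, by -0.010 and -0.28. The Smads and their cofactors turned with the choice of libraries. Of 14 such genes, 13 were higher in TO in the 6 libraries, with a median of 0.072, while 12 were lower in all 8, with a median of -0.052. None passed an unadjusted p of 0.05 in either. Ski, a repressor of Smads, differed by 0.069 and -0.047, and the ubiquitin ligases Smurf2 and Nedd4l by 0.16 and -0.044 and by 0.074 and -0.25.

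Of 17 genes known to respond to TGF-β, among them the members Tgfb1 and Ltbp2, 8 were higher and 9 lower in TO in the 6 libraries, with a median of -0.0028. In all 8 libraries 7 were higher and 10 lower, with a median of -0.079. Tgfbi, a secreted matrix protein named for its induction by TGF-β, was at 328, 398.5, 425 and 308 CPM in control and 172, 326, 198 and 252 CPM in TO lungs. Only TO 2 reached the control range. Its log2 fold change was -0.42 (SE 0.18, edgeR unadjusted p = 0.0481) in the 6 libraries and -0.60 (SE 0.19, unadjusted p = 0.0100) in all 8. Without TO 3 the 6 libraries gave -0.24. Postn and Ccn2, matrix proteins named after their values were seen, differed the other way at a similar p in the 6 libraries. Postn gave 0.48 (SE 0.22, edgeR unadjusted p = 0.0514) and 0.51 in all 8, where TO 1 was its highest library at 936 CPM. With 7 libraries, TO 1 left out, Postn gave 0.30 (edgeR unadjusted p = 0.250). Ccn2 gave 0.37 (SE 0.17, edgeR unadjusted p = 0.0559) and -0.079 in all 8. Of the exon length of Ccn2, 23.2% is shared with other genes.

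Eln, which encodes elastin, was at 3665, 4238, 10257 and 4468 CPM in control and 2214, 5778, 9191 and 3627 CPM in TO lungs. Control 3 and TO 3 were the highest, and the difference was 0.58 (SE 0.28) in the 6 libraries, 0.20 among them without TO 3, and -0.12 in all 8. With a block for replicate number in the 6 libraries it was 0.076 (unadjusted p = 0.567). The collagens Col1a1 and Col3a1 differed by -0.058 and 0.14 in the 6 libraries and by 0.30 and 0.33 in all 8. TO 1 was the highest library for both, at 3842 and 4001 CPM against 1731 to 2206 and 1972 to 2757 CPM elsewhere. With 7 libraries, TO 1 left out, the values were -0.022 and 0.14. Col3a1 differed by 0.053 in the 6 libraries without control 2.

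**Figure D4:**
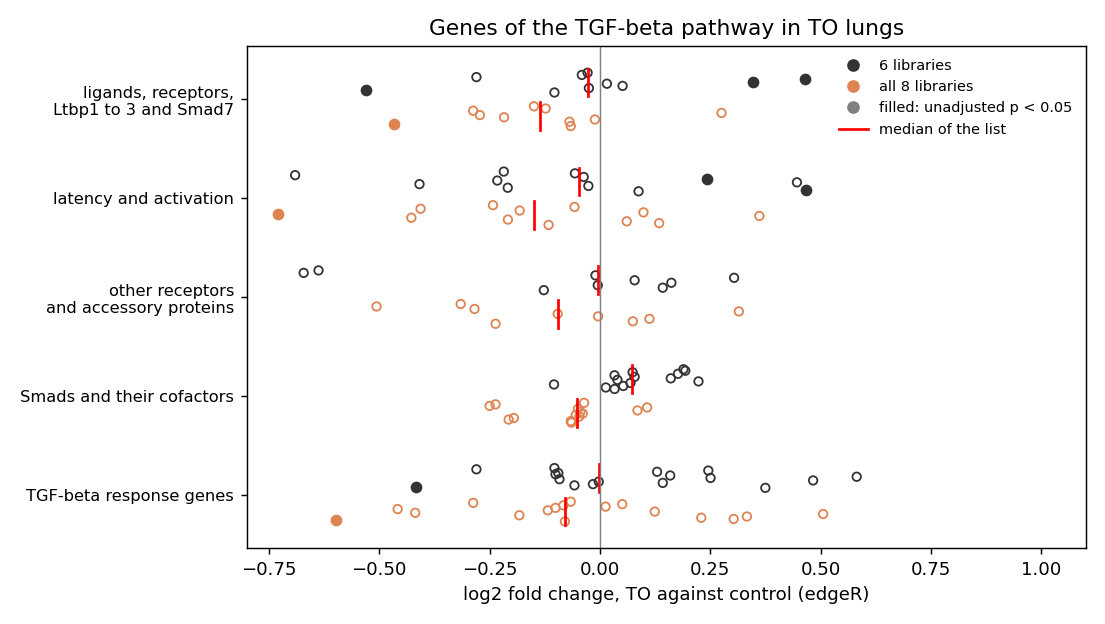
Log2 fold change of TO against control (log2 scale) for each gene of the 10 members and the 4 other pathway lists, in the 6 libraries and in all 8, with filled points for an unadjusted p under 0.05 and a red line for the median of each list. The Smads and cofactors lie mostly above 0 in the 6 libraries and mostly below 0 in all 8.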

How the data were processed

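Bulk lung RNA of 4 control and 4 TO fetuses was analysed. The authors aligned reads to mm10 (GRCm38) with STAR and deposited raw counts of read pairs per gene, with no normalization or filter, and their processing notes name DESeq2. The column for both strands was used, since each strand held 49.9% to 50.1% of reads. In this column read pairs that overlap several genes are counted for none of them. Counts were the basis of all values. Symbols, positions and lengths came from GENCODE M21, with 55144 of 55385 IDs matched. Genes with at least 5 reads in 3 libraries were tested in R 4.3.3 by the quasi-likelihood test of edgeR 4.0.16 with TMM scaling and Benjamini-Hochberg adjustment over all genes. Calls used an adjusted p of 0.1. CPM use the TMM factors of all 8 libraries. SE is the size of the log2 fold change over the square root of F.

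The first fit held the 6 specimens of the study's clustering. Alternatives were all 8 libraries, 7 without TO 1, leaving out each library, blocks for replicate number and specimen code, DESeq2 1.42.0, limma 3.58.1 (voom), other scaling and filters, and each strand column. DESeq2 with all 8 libraries was added after seeing the data. In simulated counts with known changes of 2 on the log2 scale, edgeR recovered 88.5% of 200 changed genes for the 6 libraries (20626 genes). For all 8 (21164 genes) it recovered 93.0%. It also called 20 and 27 unchanged genes. The changed genes were drawn from the better counted ones, and the largest change of a member was -0.53 (Tgfb2, 6 libraries). Recovery of changes as small as those of the members was therefore not measured. No source says that the fetuses came from separate litters, so p-values measure only the spread between these samples. No pair of libraries within a group was alike within sampling noise, and pairs across groups were not compared.

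The members, gene lists and tests were chosen with earlier results of these data known. All members are named, and of each other pathway list the 3 most abundant genes, any gene called, and any gene at an unadjusted p under 0.05 in the 6 libraries. One gene of the response list is not reported here or counted in it. Thbs1, Postn, Dcn and Ccn2 fall outside this rule and were named after their values were seen. For each ligand the 3 nearest genes are named, among genes with a mean of at least 5 CPM.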

Additional observations from a re-analysis of the deposited data

Results flagged for a closer look

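In 58 groups of 4 libraries, 9 had 1 library whose gap to its nearest neighbor exceeded Dixon's limit. In 7 of these the library was control 3. For a single group chance gives about 1 in 20. The groups share libraries, and some of the genes were named after their values were seen, so the 9 of 58 cannot be set against that rate. For Tgfbr2 control 3 stood at 395 CPM against 269 to 288 in the other controls, and for Tgfbr3 at 342 CPM against 126 to 135. It was also the high library for Bgn (988 CPM against 645 to 685), Smurf2 (227 CPM against 162 to 172), Nedd4l (464 CPM against 304 to 327), Eln (10257 CPM against 3665 to 4468) and Thbs1 (881 CPM against 360.1 to 381). Tgfb1 was high in TO 2, at 68.0 CPM against 45.3 to 48.2. Ltbp4 was low in TO 1, at 406 CPM against 631 to 669.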

How the results depend on the processing

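Members called numbered 0 in every setting. Genes called overall numbered 0 in the 6 libraries by edgeR (1123 at an unadjusted p under 0.05), 44 by DESeq2, 40 with every gene that had a read, 219 with a replicate block in the 6 libraries and 3 with one in all 8, 7 by DESeq2 in all 8, and 0 to 144 on leaving out 1 library, with 52 without control 4 and 144 without TO 4. Other pathway genes called numbered 2 with the replicate block in the 6 libraries (Postn 0.61 and Dcn 0.57, both higher in TO, adjusted p = 0.0432 and 0.0421, against 0.48 and 0.30 without the block) and 0 to 1 on leaving out 1 library (Fbn2 without TO 4, adjusted p = 0.0532). Over all 8 libraries, same-numbered libraries correlated by 0.05 to 0.16 and differently numbered ones by -0.16 to 0.097. Controls 2, 3 and 4 were each nearest to the TO library of their number, and control 1 to TO 4. In the 6 libraries, control 4 correlated by 0.063 with TO 3 and by 0.044 with TO 4. The largest correlation there was that of control 1 with TO 4, at 0.13, against 0.11 for control 2 with TO 2. The labels name no pairs, so the first fit took none, and whether the numbers mark pairs was not settled. Under the block in the 6 libraries, Tgfb2 was -0.34, Ltbp1 0.46, Ltbp2 -0.13 (edgeR unadjusted p = 0.330) and Tgfbr3 0.18 (edgeR unadjusted p = 0.210). No call of a member changed under the block. Ligand shares by the longest transcript were 34.4% for Tgfb1, 43.9% for Tgfb2 and 21.7% for Tgfb3. Tgfb2, Ltbp1 and Ltbp2 kept their direction in all 20 alternatives, which reuse the same libraries and are not independent checks. The depth of TO 1 limits every value in all 8 libraries. The cause of the turns in direction below was not tested.

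Between the 6 libraries and all 8, the direction turned for 3 of 10 members and 23 of 50 other pathway genes, 11 of them among the 14 Smads and cofactors. The values that follow are for the genes named here. Those that turned in all 8 libraries were Tgfbr1 -0.011, Tgfbr2 -0.22, Tgfbr3 -0.27, Ltbp4 -0.12, Ski -0.047, Smurf2 -0.044, Nedd4l -0.25, Col1a1 0.30, Eln -0.12 and Ccn2 -0.079. By DESeq2 in all 8 they were Tgfbr2 -0.20, Tgfbr3 -0.29, Ltbp4 -0.095, Ski -0.022, Smurf2 -0.025, Nedd4l -0.24, Col1a1 0.33, Eln -0.11 and Ccn2 -0.099. The replicate block in all 8 gave Tgfbr2 -0.22, Tgfbr3 -0.21, Ltbp4 -0.14, Ski -0.055, Smurf2 -0.064, Nedd4l -0.29, Col1a1 0.22, Eln -0.18 and Ccn2 -0.13. The block by specimen code in all 8 gave Tgfbr2 -0.21, Tgfbr3 -0.18, Ltbp4 -0.11, Ski -0.045, Smurf2 -0.052, Nedd4l -0.27, Col1a1 0.25, Eln -0.16 and Ccn2 -0.067. The replicate block in the 6 libraries gave Tgfb1 0.029, Tgfb3 0.15, Tgfbr2 -0.022, Fbn1 0.054 and Nedd4l -0.097. With 7 libraries, TO 1 left out, the values were Tgfbr2 -0.13, Tgfbr3 -0.14 and Nedd4l -0.089. The first strand column gave Tgfb3 0.0042 and Smad7 0.050. The second strand column gave Tgfb1 0.067 and Tgfbr2 -0.012. DESeq2 in the 6 libraries gave Bgn 0.0028. RLE scaling gave Bgn 0.0028. On leaving out 1 library, ranges that crossed 0 were -0.32 to 0.012 for Tgfb1, -0.084 to 0.10 for Tgfb3, -0.048 to 0.12 for Tgfbr1, -0.031 to 0.086 for Tgfbr2, -0.11 to 0.068 for Ltbp3, -0.089 to 0.064 for Smad7, -0.15 to 0.033 for Fbn1, -0.36 to 0.041 for Acvrl1, -0.081 to 0.078 for Bgn, -0.062 to 0.22 for Nedd4l and -0.17 to 0.032 for Col1a1.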
